A study of Saccharomyces cerevisiae with 6 samples.

Results

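The spots described here had low ratios in both assays of a yeast cell cycle experiment, at all 3 times sampled. Budding yeast (Saccharomyces cerevisiae, wild type strain BY4741) was held in G1 with the mating pheromone alpha factor and collected at 0 min, the arrested culture, and at 30 and 60 min after release from the arrest. Genomic run-on (GRO) and RNAp ChIP, the immunoprecipitation of chromatin bound by RNA polymerase II, were each done at each time, with 3 hybridizations per assay and time, on nylon macroarrays with probes for whole open reading frames. The description of the GRO 30 min sample names replicates 1 and 2 only, and the 3 hybridizations given for it were all used. The study's methods speak of 3 experiments on arrested cultures, without saying which replicate number belongs to which, so part of the spread between replicates that the tests use may be technical. Every sample had the same arrest and the same strain, which per the study's methods carried the plasmid pRS316, a URA3 vector, and no unarrested culture was compared.

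Of 6144 spots on the array, 5642 had a mean ratio in both assays at all 3 times, and 141 of them (2.5%) were chosen as low-ratio spots. For GRO the ratio was log2 of the run-on signal over the genomic DNA signal of the same filter, and for RNAp ChIP it was log2 of the immunoprecipitated DNA (IP) over the whole-cell extract DNA (WCE) of the same replicate number. Each hybridization was centred so that the median spot had a ratio of 0. The replicate means were turned into z-scores over the 5642 spots, which give the distance from the mean spot in units of the SD of all spots, and a spot was chosen if all 6 z-scores were -1 or lower. The spots were thus selected on the same ratios, and the levels and counts that follow from the choice are a description without a test.

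RNA polymerase II transcribes the protein-coding genes of yeast, and most of these genes are transcribed at low rates while a small set, such as those for ribosomal proteins and glycolytic enzymes, takes up many of the polymerases. In a run-on assay, polymerases already engaged on a gene extend their transcripts with labelled nucleotide, so the signal reads polymerases able to elongate. RNAp ChIP with an antibody to Rpb3, a subunit of the enzyme, recovers DNA bound by the polymerase whether or not it can elongate. Genes kept silent in a haploid growing culture, such as many of those used in meiosis and sporulation, are a textbook example of genes with little polymerase. The study's methods also mention spots of ribosomal DNA on the filters, so a low-ratio spot need not be a protein-coding gene. Which genes lie under the low-ratio spots is not described here, because the files name spots by row, column and position within a block and do not pair these with genes.

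The array had 16 rows and 24 columns of blocks, with 16 positions in each block. For GRO, the 9 run-on hybridizations were divided by 7 hybridizations of genomic DNA, because filter 1 carried replicate 1 at 0 and at 30 min and filter 6 carried replicate 3 at 0 min and replicate 2 at 60 min. For RNAp ChIP the titles and the descriptions of the 30 and 60 min samples exchange the times. The descriptions were followed, and exchanging them would leave the 141 spots as they are but would swap the 30 and 60 min values of RNAp ChIP. Comparisons of GRO with RNAp ChIP change would then set each GRO time against the other RNAp ChIP time, and their values under that exchange are given beside them. Array intensities hold no counts, so the number of hybridizations limits the precision.

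In GRO the ratio of the low-ratio spots had a median of -2.68 at 0 min, with a range from -6.33 to -1.33. The medians were -2.76 at 30 min and -2.73 at 60 min. On a linear scale the median low-ratio spot lay 6.40-fold, 6.79-fold and 6.62-fold below the median spot at 0, 30 and 60 min. In RNAp ChIP the distances were smaller, with medians of -1.48 (range -3.61 to -0.86) at 0 min, -1.78 at 30 min and -1.43 at 60 min. These are 2.79-fold, 3.43-fold and 2.70-fold below the median spot. All spots together were also spread more widely in GRO, with an SD of 1.35 at 0 min against 0.91 in RNAp ChIP. In units of that spread the assays were closer, with median z-scores of -2.02, -2.02 and -1.98 in GRO and -1.68, -1.90 and -1.74 in RNAp ChIP.

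**Figure D1:**
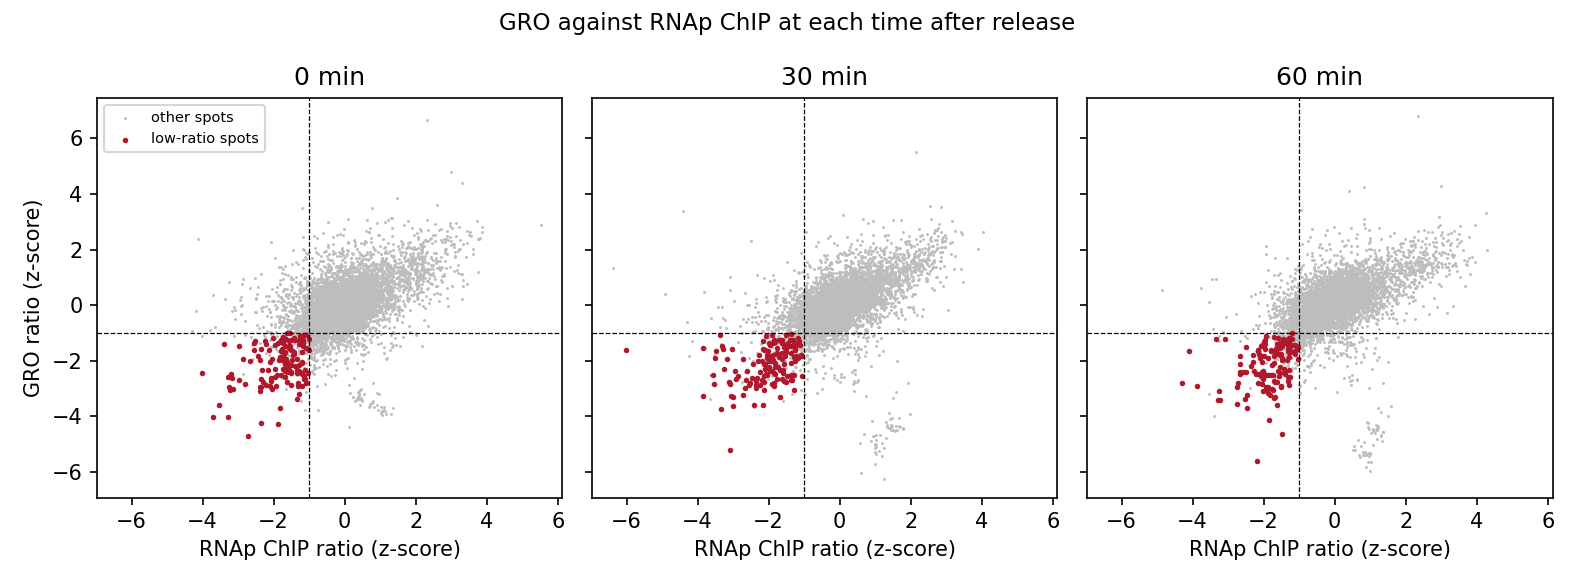
GRO z-score against RNAp ChIP z-score of each spot at 0, 30 and 60 min (left to right), with the 141 low-ratio spots in red, the other spots in grey and dashed lines at -1. The red spots fill the lower left quadrant at every time because the rule placed them there, and their lowest z-scores are -5.62 in GRO and -6.01 in RNAp ChIP.

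The rule divided a continuous distribution. The 3 chosen spots nearest to it had their highest of 6 z-scores at -1.02, -1.01 and -1.005, and the 3 nearest spots left out had theirs at -0.991, -0.989 and -0.978. At a z-score of -2 or lower were 71, 74 and 70 of the 141 spots in GRO at 0, 30 and 60 min and 42, 60 and 46 in RNAp ChIP, and 14 spots were so in all 6. In GRO, whatever their RNAp ChIP values, 343 spots (6.08%) were at -1 or lower at all 3 times. In RNAp ChIP, whatever their GRO values, 312 (5.53%) were. The low-ratio spots were 41.1% of the first and 45.2% of the second. At the other end, 235 spots (4.17%) had all 6 z-scores at 1 or higher.

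The replicates of a low-ratio spot differed from each other more than those of other spots did. The median SD over the replicates at 0, 30 and 60 min was 0.498, 0.387 and 0.392 in GRO, against 0.389, 0.337 and 0.314 over all spots. In RNAp ChIP it was 0.402, 0.281 and 0.367, against 0.307, 0.202 and 0.246. These spreads are small beside the median distance from 0 in either assay, and they are the error behind each single ratio below.

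Single hybridizations showed the low ratios one by one. The median ratio of the low-ratio spots lay between -2.89 and -2.46 over the 9 GRO hybridizations and between -1.92 and -1.33 over the 9 RNAp ChIP hybridizations. In 15 of the 18 hybridizations no low-ratio spot reached the median spot, and in GRO 30 min replicate 1, RNAp ChIP 0 min replicate 1 and RNAp ChIP 0 min replicate 3 a single one did. Depending on the hybridization, 81.3% to 98.5% of the low-ratio spots were at a z-score of -1 or lower, against 9.71% to 12.2% of all spots. At -1 or lower in all 18 single hybridizations were 34 of them, a further 46 were so in 17, 24 in 16 and 21 in 15. The remaining 16 spots were at -1 or lower in 11 to 14 hybridizations. A missing ratio is counted here as not low. Counting only the ratios a spot had, 52 of the 141 spots were at -1 or lower in every one, 39 in all but 1 and 20 in all but 2.

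**Figure D2:**
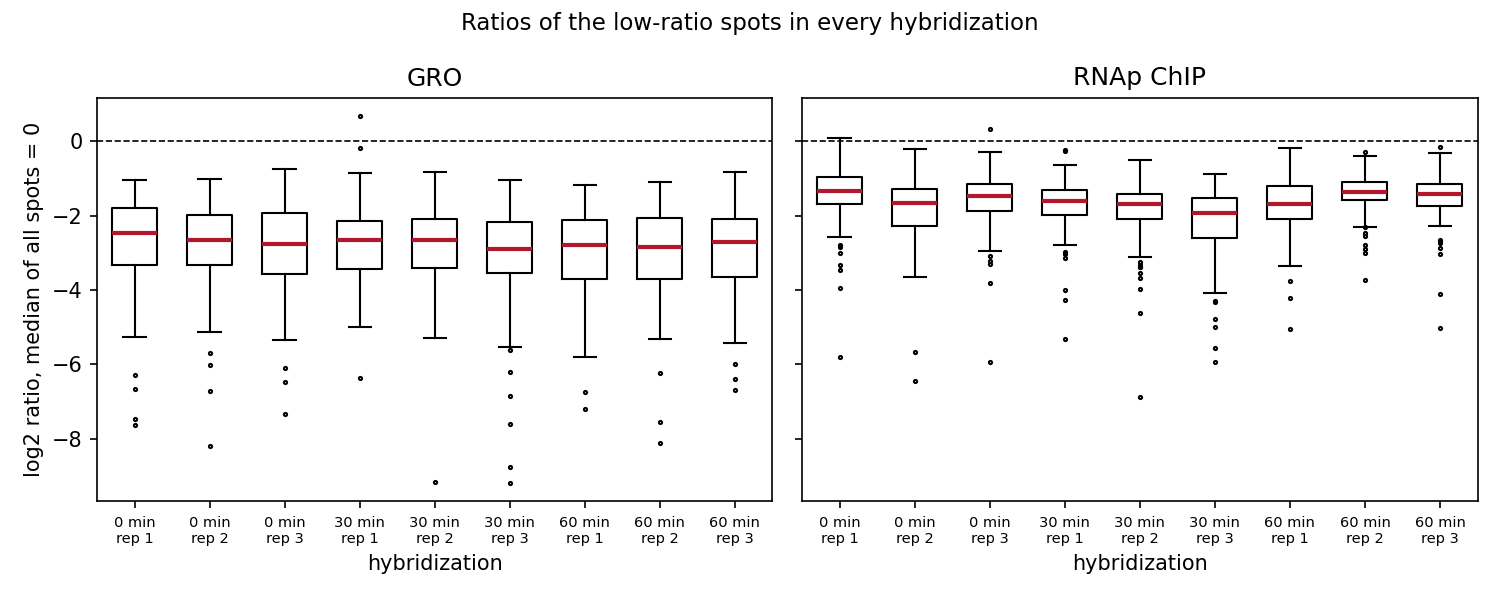
Log2 ratio of the low-ratio spots in each of the 18 hybridizations (boxes give the quartiles, the red line the median, whiskers 1.5 times the interquartile range, points the spots beyond, and the dashed line the median of all spots). The 9 GRO medians lie between -2.89 and -2.46 and the 9 RNAp ChIP medians between -1.92 and -1.33, and 3 hybridizations have a single spot above 0.

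The choice was repeated with 1 replicate number left out of both assays, and the spots so chosen were then read in the replicate that had not been used. Without replicate 1, 119 spots were chosen, of which 104 were among the 141. Without replicate 2 the numbers were 119 and 106, and without replicate 3 they were 113 and 100. In the unused replicate, 74.4% to 95.5% of the chosen spots were at -1 or lower, depending on assay, time and replicate, against 9.71% to 12.2% of all spots. All 6 unused z-scores were at -1 or lower for 59 of 111 spots with complete values in replicate 1 (53.2%), for 59 of 108 in replicate 2 (54.6%) and for 64 of 107 in replicate 3 (59.8%). The same held for 1.64%, 1.69% and 1.67% of all spots. The low ratios thus recurred in run-on, IP and WCE hybridizations that had no part in the choice. In the choices without replicate 2 or 3, the genomic DNA signal of filter 6 did have a part. GRO 0 min replicate 3 and 60 min replicate 2 share that signal.

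Among the low-ratio spots, the lowest mean of the 6 z-scores belonged to spot R15 - C12 : 2. Its GRO ratios were -4.51, -6.73 and -4.92 at 0 min, -4.38, -5.23 and -3.84 at 30 min, and -5.03 and -4.36 at 60 min, where replicate 1 had no run-on signal. Every GRO ratio of this spot lay at least as far from 0 as -3.84. The run-on intensities behind the 0 min ratios were 2.62, 0.833 and 5.43 over genomic DNA intensities of 86.3, 69.8 and 174. Its genomic DNA lay at percentile 70.5 of all spots, so the low ratio came with an above-median DNA signal. In RNAp ChIP its ratios were -2.79, -3.12 and -2.89 at 0 min and -3.31, -2.18 and -2.66 at 60 min. The 30 min ratios were further apart, at -1.96, -4.63 and -4.34.

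The next lowest spot was R2 - C17 : 2. Its GRO ratios were -7.64, -6.01 and -5.34 at 0 min, -4.99 and -9.16 at 30 min, with replicate 3 missing, and -4.12, -4.88 and -3.68 at 60 min. The ratio of -9.16 rests on a run-on intensity of 0.15 over a genomic DNA intensity of 116. The 30 min mean of this spot had an SD of 2.95 (n = 2). Its RNAp ChIP ratios were steadier, at -2.35, -2.79 and -2.17 at 0 min and -2.79, -3.02 and -2.92 at 30 min, with the highest single ratio, -0.83, in replicate 2 at 60 min.

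A low ratio can be reached with a weak numerator or with a strong denominator, so the signals were also read separately, as percentiles of all spots. For run-on and IP the percentile was the median over hybridizations. For genomic DNA and WCE it was that of the mean log2 signal over hybridizations. Run-on signal had a median percentile of 9.06 over the 141 spots and IP signal one of 17.1. Genomic DNA had a median percentile of 63.0, with quartiles at 43.4 and 91.7, and WCE one of 52.3, with quartiles at 34.2 and 90.1. Numerators were thus low in most of these spots, and in part of them the denominators were high. Of the 141, 41 were among the 565 spots with the brightest 10% of genomic DNA signal, and 34 of these 41 were also among the brightest 10% in WCE.

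In the 41 bright spots the undivided signals were higher than in the rest. Their run-on signal had a median percentile of 36.2 and their IP signal one of 62.3. In 12 of them the run-on signal was above that of the median spot, and in 29 the IP signal was. In the other 100 spots the median percentiles were 5.33 for run-on and 12.1 for IP, and neither signal was above the median spot in any of them. When the same rule was applied to run-on and IP signals without dividing by DNA, 317 of 5809 spots passed. They shared 41 spots with the 141, which is 29.1% of the low-ratio spots and 12.9% of the spots passing on signal alone. None of the 41 bright spots was among those shared. The name least transcribed thus fits the spots as a ratio to DNA, and by the same rule on undivided signal it fits 41 of them. Undivided signals also depend on the probe of each spot, so levels of different spots are not on a like footing there.

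**Figure D3:**
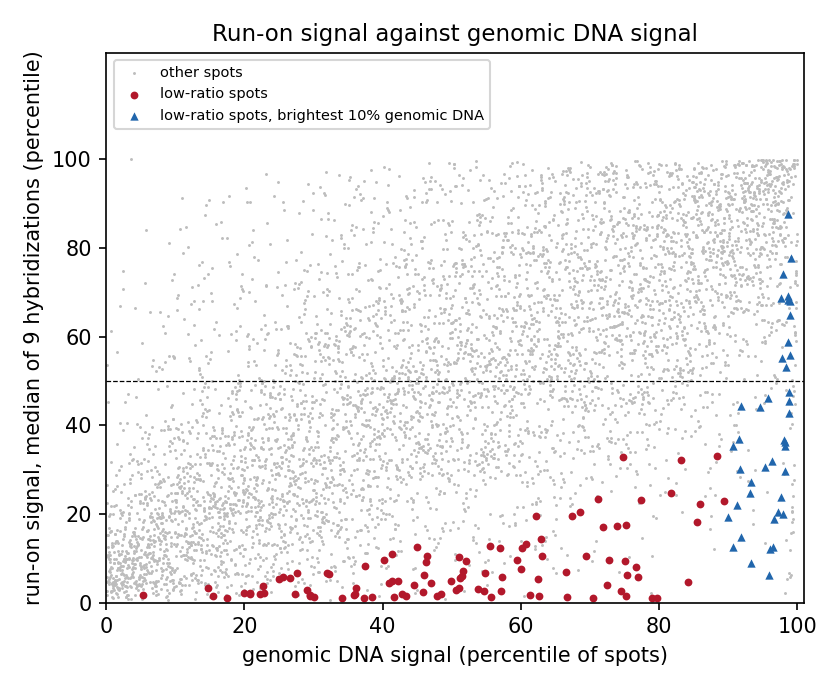
Run-on signal against genomic DNA signal of each spot, both as percentiles over spots (blue triangles, the 41 low-ratio spots in the brightest 10% of genomic DNA, red points, the other 100 low-ratio spots, grey, other spots, dashed line, median run-on signal). The run-on percentile is the median over hybridizations, and the genomic DNA percentile is that of the mean log2 signal. All red points lie below the dashed line, and 12 of the 41 triangles lie above it.

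Spots that were low in 1 assay had other signals. The 202 spots low in GRO alone had a median genomic DNA percentile of 88.4, and 100 of them (49.5%) were in the brightest 10%, against 29.1% of the low-ratio spots and 10.0% of all spots. Their median run-on percentile was 23.9, and their median IP percentile, 60.5, was above that of the median spot. The 171 spots low in RNAp ChIP alone had a median genomic DNA percentile of 33.7 and a median WCE percentile of 33.8. With the brightest 10% of genomic DNA left out of every group, the median run-on percentile was 5.33 in 100 low-ratio spots, 10.4 in 102 spots low in GRO alone and 21.2 in 166 spots low in RNAp ChIP alone. The median IP percentiles of the same spots were 12.1, 28.6 and 12.2. These differences were not tested, since DNA, run-on and IP signals all enter the ratios that define the groups.

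The missing values of these spots were all in the numerators. In 30 of the 141 spots at least 1 of the 18 ratios was missing. All 47 missing ratios had a numerator of 0, 35 of them in run-on and 12 in IP, and no denominator was missing. The other 111 spots had all 18 ratios. A numerator of 0 left the mean of that spot to the remaining replicates, so the means of those 30 spots leave out their lowest readings.

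Within the low-ratio spots the level in one assay gave limited information on the level in the other. Over the 141 spots the correlation between GRO and RNAp ChIP z-scores was r = 0.377 at 0 min, 0.296 at 30 min and 0.308 at 60 min, against 0.510, 0.530 and 0.515 over all 5642 spots. Restricting both z-scores to -1 or lower narrows their range, so the values in the chosen spots and in all spots are not on a like footing. The order of the spots was kept better within an assay. Between times, r was 0.641, 0.736 and 0.646 in GRO for 0 and 30, 0 and 60, and 30 and 60 min, and 0.540, 0.385 and 0.492 in RNAp ChIP. GRO was the lower of the 2 z-scores at all 3 times in 56 spots and the higher in 25. Spots of an array share hybridizations and filters, so these are descriptions over spots and not over samples.

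The low-ratio spots were spread over the array but not evenly within its blocks. They lay in 117 of the 384 blocks, 22 blocks held more than 1 and the most in a block was 3. Each row of blocks had 3 to 16 of them and each column 1 to 11. Positions 1, 2 and 4 within a block, picked after the counts were seen, held 22, 24 and 20, together 46.8% of the low-ratio spots, where 19.4% of all 5642 spots lie at these positions. The share was 51.0% in the 100 dimmer spots and 36.6% in the 41 bright ones. The other 13 positions held 2 to 12 each. After the median of each position was removed from every ratio, 140 spots passed the rule, 127 of them among the 141, and 42.1% of the 140 still lay at positions 1, 2 and 4. After the median of each block was removed, 144 spots passed and 112 of them were shared. What is spotted at these positions is not given in the sources used here, and the part of printing order or of gene choice in this pattern was not tested.

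**Figure D4:**
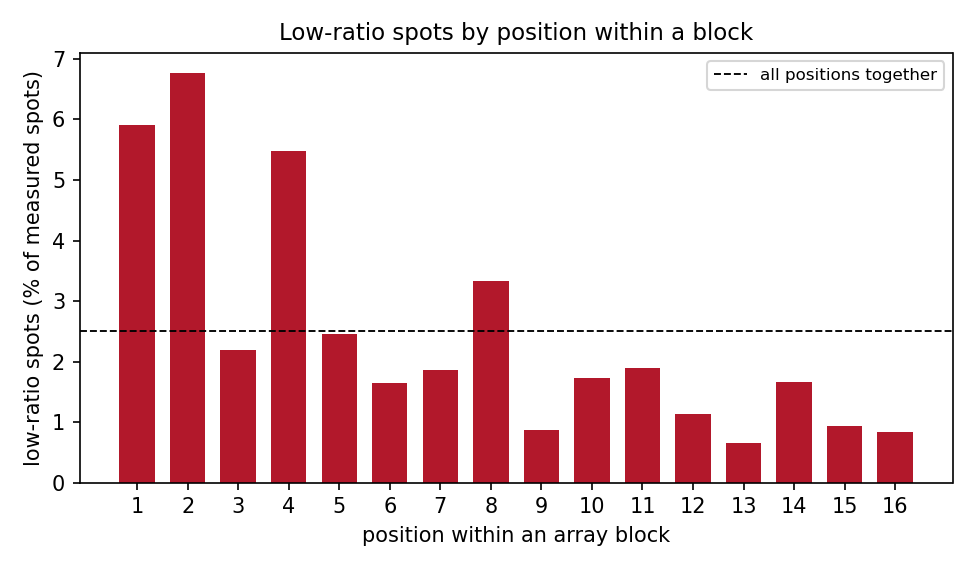
Share of measured spots (percent) that were low-ratio spots at each of the 16 positions within a block, with the dashed line at the share over all positions. Positions 2, 1 and 4 have the highest shares, 6.76%, 5.91% and 5.48%, against 2.5% over all positions.

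The question of whether transcription changed after release was asked of the same spots. Each spot had to stay low at all 3 times to be chosen. Spots that rose above the threshold after release, or that fell below it from a higher level at 0 min, were thus left out. The counts of changes below are set beside those over all spots without being read as a property of these spots. A change was called at a Benjamini-Hochberg adjusted p below 0.05 in limma, a linear model with a moderated variance, adjusted over all spots tested.

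In GRO, 5 of the 141 spots changed between 0 and 30 min, and 301 of 5699 spots tested (5.28%) did so in all. Of the 5, 3 were higher and 2 lower, where 1.82% of all spots were higher and 3.46% lower. With the replicate number as a block, which is the paired form of this comparison, 1 low-ratio spot was called (0.709%), and 2.42% of all spots were. At 60 min 3 had changed, 1 higher and 2 lower, where 2.39% of all spots had (0.614% higher and 1.77% lower). The median change of the low-ratio spots was -0.14 at 30 min and -0.25 at 60 min, against -0.02 and -0.03 over all spots. Over the other processing choices these medians lay between -0.20 and -0.01 at 30 min and between -0.41 and -0.09 at 60 min, in both cases nearest to 0 with quantile normalization. With 1 hybridization left out they ran from -0.23 to -0.11 and from -0.29 to -0.17. Changes below 0 were seen in 87 spots at 30 min (61.7%) and in 93 at 60 min (66.0%), where 50.9% and 52.0% of all spots were below 0. On filter 1 alone, where 0 and 30 min replicates were read against the same genomic DNA signal, 83 of 136 spots (61.0%) were below 0 at 30 min, against 51.9% of all spots. On filter 6 the same held for 79 of 137 spots (57.7%) at 60 min, against 53.7%. Leaving out any 1 hybridization lowered the count at 30 min to 2 or 3, where 1.91% to 3.86% of all spots were called. The count at 60 min fell to 0 without 0 min replicate 1 or 2 or without 60 min replicate 2 or 3, and to 1 without 60 min replicate 1. Of all spots 0.211% to 0.439% were called where it fell to 0, and 0.912% where it fell to 1.

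The largest rise called in GRO was that of spot R6 - C18 : 16. Its GRO ratios went from -3.51, -3.21 and -3.25 at 0 min to -1.30, -1.57 and -1.71 at 30 min and -2.09, -1.75 and -1.31 at 60 min. All 3 ratios at 0 min lay below all 6 later ones, but a lack of overlap between 0 and 30 min was a condition for naming this spot. The rise was 1.79 (SE 0.26, limma adjusted p = 0.00878) at 30 min and 1.60 (SE 0.26, limma adjusted p = 0.0197) at 60 min. At 30 min its adjusted p lay between 0.000223 and 0.0341 over the other processing choices and hybridizations left out. At 60 min the call was lost with the replicate number as a block, at a limma adjusted p of 0.0567, and after removing block medians, at 0.0652. It was also lost without 0 min replicate 1 or 2 and without 60 min replicate 2 or 3. Its run-on intensities were 2.33, 6.15 and 7.52 at 0 min and 11.1, 17.3 and 17.9 at 30 min. In RNAp ChIP its ratios were -3.94 and -1.79 at 0 min, with replicate 2 missing, and -0.85, -1.44 and -0.997 at 60 min, and no change was called there.

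The largest fall called in GRO was that of spot R13 - C19 : 15. Its ratios were -1.57, -1.60 and -2.62 at 0 min, -3.11, -2.95 and -2.63 at 30 min, and -4.04, -3.61 and -3.88 at 60 min. The ratios at 60 min lay below all others of this spot, and their lack of overlap with 0 min was again a condition for naming it. The change at 60 min was -1.91 (SE 0.32, limma adjusted p = 0.0236). Its call was lost, at a limma adjusted p of 0.0608, with the replicate number as a block, at 0.0933 with the mean genomic DNA signal as denominator and at 0.0601 after removing block medians. It was also lost without 0 min replicate 1 or 2 and without any 1 of the 60 min replicates.

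In RNAp ChIP, 6 of the 141 spots changed between 0 and 30 min, all of them lower, where 5.25% of all spots changed in either direction, 1.73% higher and 3.52% lower. Low RNAp ChIP values at 30 min were part of the rule, so the next values are a description. The median change of the low-ratio spots was -0.35, against 0.02 over all spots, and 109 of the 141 (77.3%) were below 0, where 48.7% of all spots were. That median stayed between -0.35 and -0.29 under the other processing choices and between -0.41 and -0.20 with 1 hybridization left out. The spread of all spots was also largest at 30 min, with an SD of 0.95 against 0.91 at 0 min and 0.86 at 60 min, and its part in the lower ratios was not tested. On the z-score scale, which divides by it, the medians were -1.68 at 0 min and -1.90 at 30 min. With 1 hybridization left out, 0 to 6 low-ratio spots were called. The count was 0 without 30 min replicate 3, where 2.37% of all spots were called. It was 2 without 30 min replicate 2 (3.96%) or 0 min replicate 3 (3.29%). It stayed at 6 without 0 min replicate 2 or 60 min replicate 1.

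The largest of these falls was that of spot R6 - C11 : 11. Its RNAp ChIP ratios were -2.30, -2.26 and -1.32 at 0 min and -4.26, -6.89 and -5.93 at 30 min, and at 60 min they were -0.67 and -1.39, with replicate 3 missing. The 30 min ratios lay below all the others of this spot, where the lack of overlap with 0 min was a condition for naming it. The fall was -3.73 (SE 0.62, limma adjusted p = 0.0143). It rests on IP intensities of 4.32, 0.946 and 1.52 at 30 min over WCE intensities of 127, 152 and 149, with WCE at percentile 16.6 of all spots. Its limma adjusted p was 0.0507 without 0 min replicate 3 and 0.0619 without 30 min replicate 3. Its GRO ratios, from -2.60 to -1.18 over the 9 hybridizations, overlapped between all 3 times.

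At 60 min no low-ratio spot passed limma's adjusted threshold in RNAp ChIP, where 2.35% of all spots did. At an unadjusted p below 0.05 there were 18 (12.8%), against 14.2% of all spots. The median change was -0.06, against 0.03 over all spots, and it lay between -0.13 and 0.11 with 1 hybridization left out, so its sign depended on single hybridizations. With quantile normalization it was -0.23, with 90 of the 141 spots below 0 and 3 called lower (2.13%, against 2.73% of all spots called), and with the mean WCE signal as denominator it was -0.14, with 88 below 0. Without RNAp ChIP 0 min replicate 3, 1 low-ratio spot was called, where 1.84% of all spots were. In the main processing 72 spots were below 0 and 69 above.

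**Figure D5:**
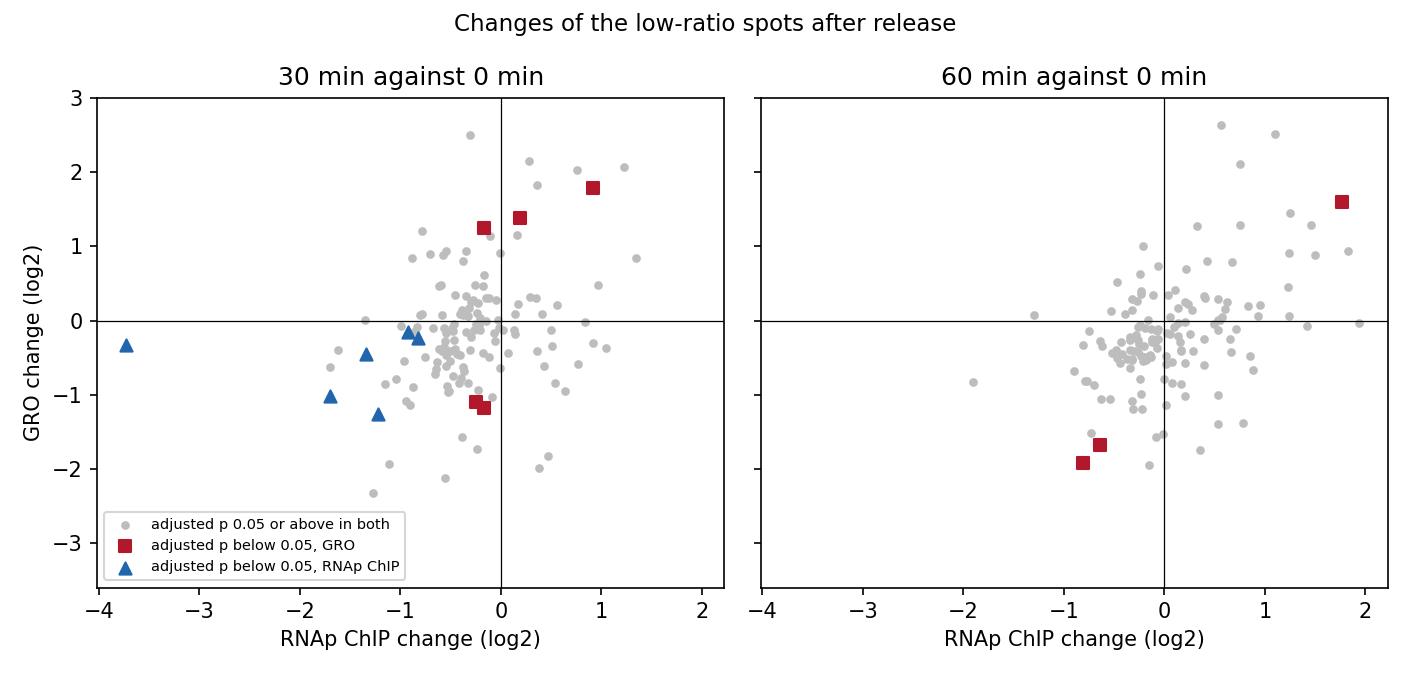
Change of each low-ratio spot in GRO against its change in RNAp ChIP (both log2, mean of replicates), at 30 min (left) and 60 min (right) against 0 min. Red squares passed limma's adjusted threshold in GRO and blue triangles in RNAp ChIP, and at 30 min 109 of the 141 spots lie left of 0 on the RNAp ChIP axis, against 72 at 60 min.

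The difference between the change in GRO and the change in RNAp ChIP was tested itself, as an interaction in limma over the z-scores of all 18 hybridizations. At 30 min 2 low-ratio spots passed, where 1.52% of all spots did, and at 60 min none did, where 0.727% of all spots did. At an unadjusted p below 0.05 there were 20 spots (14.2%) at 30 min, against 17.1% of all spots, and 12 (8.51%) at 60 min, against 14.4%. The median difference, GRO change minus RNAp ChIP change in z-score units, was 0.28 at 30 min and -0.01 at 60 min. With 1 hybridization left out it lay between 0.18 and 0.34 at 30 min and between -0.02 and 0.08 at 60 min. On log2 ratios in place of z-scores it was 0.19 and -0.20, and with quantile normalization 0.34 and 0.11, so its sign at 60 min depended on the processing. With the RNAp ChIP times exchanged it was 0.09 and 0.20, and 2 and 1 spots were called at 30 and 60 min, where 2.75% and 3.07% of all spots were. Neither of the 2 spots first called at 30 min was among these. In the main processing the difference was above 0 in 95 of the 141 spots at 30 min and in 70 at 60 min. Below 0 were 32.6% and 50.4% of the low-ratio spots, against 49.3% and 48.2% of all spots. The median over all spots was 0.01 and 0.02. With the RNAp ChIP times exchanged, 64 and 53 of the 141 spots were below 0. The count of low-ratio spots called at 30 min was 0 without GRO 0 min replicate 1, GRO 30 min replicate 2 or 3, RNAp ChIP 0 min replicate 3 or RNAp ChIP 30 min replicate 3. Of all spots 0.656% to 0.780% were called in these fits. The count was 3 without GRO 30 min replicate 1 (1.68% of all spots) and 4 without RNAp ChIP 0 min replicate 2 (3.40%). At 60 min it was 1 without RNAp ChIP 0 min replicate 3 (0.620%).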

How the data were processed

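The authors deposited spot intensities from phosphorimager scans of nylon filters hybridized with 33P-labelled run-on RNA, genomic DNA, IP or WCE, with the local background subtracted and no normalization between hybridizations. Before labelling, the DNA of IP and WCE was amplified by PCR. All 34 hybridizations were used. An intensity of 0 was taken as missing. The study's methods accepted as valid only values a set factor above background. No such filter was added here, so intensities near 0 may not meet it. Log2 ratios were centred on their median over usable spots. A mean needed at least 2 of 3 replicates at each time, which left 5699 spots in GRO and 5829 in RNAp ChIP. Groups came from the labels. Tests of change used limma 3.58.1 (R 4.3.3), in one fit of 9 hybridizations per assay. They were also run on simulated data with independent noise in each hybridization. Those data lack the shared filters, so no conclusion is drawn from them. All else was computed in Python 3.11.15 (pandas 2.3.3, numpy 2.4.6). The spots, thresholds and alternatives were chosen with earlier results of these data known. Named spots are the 2 with the lowest mean z-score and, in each assay, the largest called rise and fall whose replicates did not overlap between the times. R3 - C1 : 11 was added after its values were seen. No sequence is shown, because spots were not paired with genes.

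Replicates with the same number deviated together between 0 and 30 min in GRO, with r = 0.501, 0.126 and 0.174 for replicates 1, 2 and 3. The main tests did not pair them, and the fit with the replicate number as a block is the paired form. Replicate 1 of both times shared filter 1. In each other comparison at least 1 number fell below 0.1.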

Additional observations from a re-analysis of the deposited data

Results flagged for a closer look

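In 2 low-ratio spots the GRO change at 30 min differed from the RNAp ChIP change by limma's test of the difference itself, adjusted over all spots, on z-scores. Spot R6 - C11 : 11 had a difference of 3.52 (SE 0.69, limma adjusted p = 0.0251), through its fall in RNAp ChIP at IP intensities near 0 while its GRO ratios overlapped between 0 and 30 min. With the mean DNA signal as denominator the limma adjusted p was 0.109. Spot R3 - C1 : 11 had a difference of -1.29 (SE 0.30, limma adjusted p = 0.0472). Its GRO ratios were -2.33 and -3.14 at 0 min, with replicate 2 missing, and -3.42, -4.00 and -3.63 at 30 min. Its RNAp ChIP ratios were -1.82, -2.01 and -1.79 at 0 min and -1.35, -1.22 and -1.14 at 30 min. The times did not overlap in either assay. Its run-on intensities were low, at 6.06 and 4.85 at 0 min and 2.945, 4.58 and 2.89 at 30 min. The call of the difference was kept under 2 of 8 other processing choices and in 5 of 18 fits with 1 hybridization left out. With the 30 and 60 min labels of RNAp ChIP exchanged, neither difference was called, at limma adjusted p of 0.495 for R6 - C11 : 11 and 0.0557 for R3 - C1 : 11.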

How the results depend on the processing

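With the z-score threshold raised by 0.25 from -1, 237 spots were low in both assays, with it lowered by 0.25 there were 83, and on run-on and IP signals alone 317, while 7 other choices kept the number within 1.5 times of 141 and leaving out 1 hybridization gave 128 to 139. With the replicate number as a block, the called low-ratio spots were 1 at 30 min and 1 at 60 min in GRO, 3 at 30 min in RNAp ChIP and 1 for the difference at 30 min. The shares of all spots called there were 2.42%, 0.825%, 3.09% and 0.904%. With the mean DNA signal as denominator the called low-ratio spots at 30 min were 3 in GRO, 1 in RNAp ChIP and 0 for the difference. Of all spots 4.25%, 1.22% and 0.390% were called. Without the spots of dimmest DNA, 11 and 6 were called in GRO at 30 and 60 min and 1 for the difference at 30 min. These are 8.03%, 4.38% and 0.752% of the low-ratio spots tested, against 10.8%, 5.12% and 2.38% of all spots. With the filter as a random block, chosen after the data were seen, GRO gave 39 (12 higher and 27 lower, 27.7% of the low-ratio spots against 26.8% of all spots) and 24 (5 higher and 19 lower, 17% against 13.6%). Removing block medians gave 10 in RNAp ChIP at 30 min, quantile normalization 3 at 60 min, and the difference at 30 min was 1 after removing position medians and 1 on log2 ratios. The shares of all spots called were 7.67%, 2.73%, 1.03% and 1.54%, in that order. Leaving out 1 hybridization gave 2 to 3 and 0 to 3 in GRO at 30 and 60 min, 0 to 6 and 0 to 1 in RNAp ChIP, and 0 to 4 and 0 to 1 for the difference. Of all spots, 1.91% to 3.86% and 0.211% to 2.53% were then called in GRO. In RNAp ChIP the shares were 2.37% to 5.71% and 1.36% to 2.23%, and for the difference 0.656% to 3.40% and 0.425% to 1.83%. The cause of these shifts was not tested. With the RNAp ChIP times exchanged, also chosen after the data were seen, 1 difference was called at 60 min and that of R6 - C11 : 11 at 30 min reversed to -0.998. Of 52 counts 32 stayed within 1.5 times, and no other direction of a named spot reversed. Intensities near 0 limit single ratios most, since the error of the subtracted background is not in the files.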

Other observations

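Of the 502 spots that lacked at least 1 of the 6 means, 55 had all 18 DNA denominators, so that the missing part was run-on or IP signal. In 6 of the 55 the run-on intensity was 0 at each time in no fewer than 2 of 3 replicates, and in 1 the IP intensity was. At every mean they did have, 23 of the 55 had a z-score of -1 or lower, and 9 of the 55 had more genomic DNA signal than the median spot. The rule for low-ratio spots could not be applied to these spots, and they are not counted among the 141.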
